A study of Mus musculus with 10 samples.

Results

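The Argonaute genes Ago1, Ago2, Ago3 and Ago4 and the trinucleotide repeat genes Tnrc6a, Tnrc6b and Tnrc6c encode the core of the microRNA silencing complex. They were taken as all probe sets annotated to these 7 symbols, which gave 8 probe sets among the 35557 of the array. Each gene was represented by its probe set of highest mean signal, so 7 of the 19938 genes tested were members, and the second Ago2 probe set is given beside the first. DicerCN lenses came from embryos that carried the Le-Cre transgene (Le-Cre+/-) and the floxed DicerloxP/loxP alleles, and control lenses from embryos with the same DicerloxP/loxP alleles and no transgene (Le-Cre-/-), which the sample titles call wt. Le-Cre expresses Cre under the Pax6 P0 promoter, from about E9 according to the labels, in surface ectoderm, the source of the lens and of the corneal epithelium. All embryos were at E13.5 (days of embryonic development), and each of the 5 arrays per group held RNA from the pooled lens pair of 1 embryo. Control embryos had no Cre, so the presence of Cre and the loss of Dicer cannot be told apart here, and cells in the dissected lens that do not come from the surface ectoderm would keep Dicer.

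Argonaute proteins hold a mature microRNA and use it to find target messenger RNAs. Of the mammalian Argonautes, Ago2 is the one known for efficient cleavage of a fully matched target. Tnrc6 proteins, also called GW182 proteins for their glycine-tryptophan repeats, bind Argonautes and recruit the enzymes that shorten the poly(A) tail of the target and remove its cap. Dicer cuts microRNA precursors and so supplies most of the small RNAs that Argonautes load. The arrays measured transcripts, not proteins.

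In DicerCN lenses 4 of the 7 members rose and 0 fell, against 6.54% of all 19938 genes that differed in either direction, 2.56% that were higher and 3.97% that were lower. The 4 were Ago1 (1.72-fold), Ago2 (1.44-fold), Tnrc6a (1.35-fold) and Ago3 (1.32-fold). Tnrc6b, Tnrc6c and Ago4 did not pass the test, although their changes were positive as well. The median change of the 7 was 0.40 on the log2 scale, and that of all genes was -0.0014. A gene counts as changed when its adjusted p was under 0.05 in limma, which fits all genes together and adjusts over them by the Benjamini-Hochberg method.

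Ago1, Ago3 and Ago4 lie side by side on 1 strand of mouse chromosome 4, and Ago1 rose more than either of the other 2 in tests given with the member pairs. Their start regions are shown for that reason, with that of Tnrc6a, the Tnrc6 gene that passed the test. The pair tests did not separate its change from those of Tnrc6b and Tnrc6c. RefSeq start regions of build GRCm38.p6 were found for 6 of the 7 members, and Ago2 was not matched. Each line gives the 250 bases before the annotated start, 5′ to 3′ on the strand of the gene, from chr4:126468632-126468881 for Ago1, chr4:126429543-126429792 for Ago3 and chr4:126533459-126533708 for Ago4, all on the minus strand, and chr7:123123635-123123884 on the plus strand for Tnrc6a. Capitals mark matches, on either strand, to the promoter motifs searched.
Ago1: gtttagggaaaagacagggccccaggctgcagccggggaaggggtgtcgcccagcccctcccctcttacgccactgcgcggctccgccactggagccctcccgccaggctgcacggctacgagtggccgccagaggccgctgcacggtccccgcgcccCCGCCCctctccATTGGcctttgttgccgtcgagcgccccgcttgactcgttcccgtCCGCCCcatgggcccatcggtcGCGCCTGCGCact
Ago3: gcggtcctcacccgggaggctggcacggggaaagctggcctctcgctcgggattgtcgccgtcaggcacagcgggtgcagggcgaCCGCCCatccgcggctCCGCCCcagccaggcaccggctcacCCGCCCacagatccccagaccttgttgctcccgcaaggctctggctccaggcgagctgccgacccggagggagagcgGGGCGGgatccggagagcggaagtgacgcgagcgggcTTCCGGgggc
Ago4: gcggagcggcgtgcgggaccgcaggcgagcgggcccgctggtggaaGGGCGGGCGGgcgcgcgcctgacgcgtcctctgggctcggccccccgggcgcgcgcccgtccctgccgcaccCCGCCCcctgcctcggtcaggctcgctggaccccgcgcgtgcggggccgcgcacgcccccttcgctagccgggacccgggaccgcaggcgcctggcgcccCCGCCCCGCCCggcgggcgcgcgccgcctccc
Tnrc6a: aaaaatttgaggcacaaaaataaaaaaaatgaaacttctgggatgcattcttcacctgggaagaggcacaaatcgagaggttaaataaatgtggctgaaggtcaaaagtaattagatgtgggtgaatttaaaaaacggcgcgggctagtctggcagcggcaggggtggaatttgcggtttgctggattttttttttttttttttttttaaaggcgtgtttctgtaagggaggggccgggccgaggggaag
The 6 motifs searched included the GC box GGGCGG, the CCAAT box CCAAT and the TATA box TATAAA. The others were the E-box CACGTG, the ETS core CCGGAA and an NRF1 site, whose pattern left a position open to any base. The GC box matched at 2 places in Ago1, 4 in Ago3 and 5 in Ago4, where 2 pairs of matches overlap, and 32.7% of the 32851 start regions of the same length hold at least 1. Ago1 also held 1 CCAAT box, found in 33.8% of start regions, and 1 NRF1 match, the last run of capitals in its line, found in 3.74%, while Ago3 held 1 ETS core, found in 12% of them. The Tnrc6a window held no match to any of the 6 motifs. That was also so for the window of Tnrc6c, which did not pass the test and is not shown. For Tnrc6b, not shown either, the window farther upstream held 1 GC box and 4 CCAAT boxes, and the other held 1 E-box. None of the 4 windows shown held a TATA box, which 12.4% of start regions hold, or an E-box, which 6.02% hold. The share of G and C was 72.4% in Ago1, 73.6% in Ago3, 85.6% in Ago4 and 42.4% in Tnrc6a, against a median of 52.4% over all start regions. For Ago1 a second annotated start lies close by, and the one farther upstream is shown. A match is a run of letters and not a measured binding site.

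Ago1 had log2 signals of 10.69, 10.76, 10.85, 10.53 and 10.75 in DicerCN replicates 1 to 5, against 9.92, 9.86, 10.04, 9.81 and 10.02 in control replicates 1 to 5. Every DicerCN array lay above every control array, with 0.48 between the lowest DicerCN and the highest control value. It averaged 10.72 ± 0.12 in DicerCN lenses and 9.93 ± 0.10 in control lenses (SD, n = 5 each). The change was 0.79 on the log2 scale (SE 0.08, 95% confidence interval 0.61 to 0.96, limma adjusted p = 0.000163). Ago1 ranked 40 among all genes by p-value, and 140 genes, Ago1 included, had a change at least as large in the upward direction. Each of the 10 fits that left out 1 array, and each of the 12 other fits, kept Ago1 past the threshold, with changes between 0.75 and 0.90.

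Ago2, the slicing Argonaute, had log2 signals of 10.20, 10.48, 10.72, 10.19 and 10.36 in DicerCN replicates 1 to 5, against 9.81, 9.64, 9.94, 9.97 and 9.96 in control replicates 1 to 5. The groups did not overlap, and DicerCN replicate 3 stood highest. The change was 0.53 (SE 0.11, 95% confidence interval 0.29 to 0.77, limma adjusted p = 0.0133). The second Ago2 probe set had 9.81, 10.10, 10.73, 9.81 and 10.05 in DicerCN replicates and 9.46, 9.14, 9.70, 9.43 and 9.68 in control replicates. Its groups did not overlap either, DicerCN replicate 3 was again the highest, and its change was 0.62 (SE 0.17, limma adjusted p = 0.0453 over all single-gene probe sets). Both Ago2 probe sets therefore rose. In DicerCN replicate 3 the sets gave nearly equal signals, the first minus the second being -0.01, whereas in the other arrays that difference ran from 0.24 to 0.54.

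Ago3 had log2 signals of 9.35, 9.34, 9.25, 9.10 and 9.02 in DicerCN replicates 1 to 5, against 8.91, 8.66, 9.07, 8.59 and 8.83 in control replicates 1 to 5. Here the groups overlapped: 4 of the 5 DicerCN arrays were above every control array, and DicerCN replicate 5 lay 0.057 below control replicate 3. The change was 0.40 (SE 0.10, 95% confidence interval 0.17 to 0.62, limma adjusted p = 0.040). That call was past the threshold in only 2 of the 10 fits that left out 1 array, those without control replicate 3 and without DicerCN replicate 5. In the other 8 fits, each without 1 of control replicates 1, 2, 4 and 5 or DicerCN replicates 1, 2, 3 and 4, the adjusted p was 0.0570 to 0.105, with changes of 0.34 to 0.43.

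Ago4 had log2 signals of 6.40, 6.04, 6.30, 6.28 and 6.44 in DicerCN replicates 1 to 5, against 6.23, 6.21, 6.32, 6.15 and 6.19 in control replicates 1 to 5. The groups overlapped widely, and the DicerCN arrays held both the highest and the lowest value. Its change was 0.07 (SE 0.08, 95% confidence interval -0.11 to 0.25, limma adjusted p = 0.739), so a rise of the size seen in Ago1 lies outside the interval. The Ago4 probe set gave signals close to the array medians of 6.54 to 6.56. The deposited table gives no detection calls, so it was not tested if this signal lies above background.

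**Figure D1:**
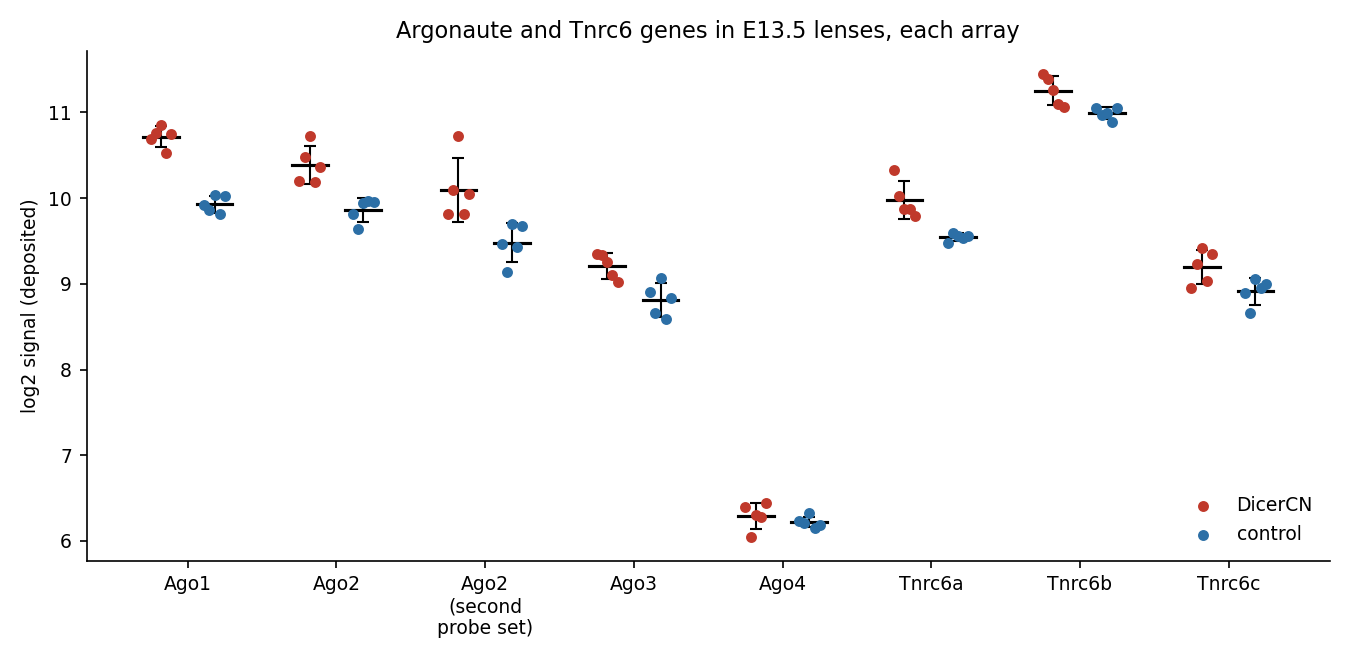
The vertical axis gives the deposited log2 signal of each array for the 8 probe sets of the 7 members, with DicerCN lenses in red left of control lenses in blue; black lines are means and bars are SD (n = 5 each). All DicerCN points of Ago1, of both Ago2 probe sets and of Tnrc6a stand above all control points, those of Tnrc6b do so by 0.0087, and those of Ago3, Ago4 and Tnrc6c overlap with control.

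Among the Tnrc6 genes, Tnrc6a had log2 signals of 10.33, 10.03, 9.87, 9.87 and 9.79 in DicerCN replicates 1 to 5, against 9.48, 9.59, 9.56, 9.54 and 9.56 in control replicates 1 to 5. The groups did not overlap, and the control values lay close together (SD 0.22 in DicerCN and 0.045 in control lenses, n = 5 each). The change was 0.43 (SE 0.10, 95% confidence interval 0.22 to 0.64, limma adjusted p = 0.0205). Without control replicate 1 the adjusted p was 0.0610.

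Tnrc6b had log2 signals of 11.45, 11.39, 11.26, 11.10 and 11.06 in DicerCN replicates 1 to 5, against 11.05, 10.97, 10.99, 10.89 and 11.05 in control replicates 1 to 5. The groups did not overlap, but only 0.0087 separated the lowest DicerCN from the highest control array. Its change was 0.26 (SE 0.09, 95% confidence interval 0.07 to 0.45) and did not pass over all genes (limma adjusted p = 0.108). The exact permutation test of this gene alone gave p = 0.00794, the smallest value that 5 against 5 arrays allow. Any gene whose groups do not overlap gets that value, and 7.38% of all genes had such groups in either direction. Tnrc6b passed after quantile normalization (adjusted p = 0.0467) and with the neural retina score as a covariate (adjusted p = 0.0303).

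Tnrc6c had log2 signals of 8.95, 9.23, 9.42, 9.03 and 9.35 in DicerCN replicates 1 to 5, against 8.89, 8.66, 9.06, 8.95 and 9.0 in control replicates 1 to 5. The groups overlapped, with 3 of the 5 DicerCN arrays above every control array. Its change was 0.28 (SE 0.11, 95% confidence interval 0.05 to 0.52, limma adjusted p = 0.163). All DicerCN arrays lay above all control arrays in 4 of the 7 members, Ago1, Ago2, Tnrc6a and Tnrc6b, and 2.96% of all genes were separated in that direction. The plot of changes with their intervals shows the 7 members side by side.

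**Figure D2:**
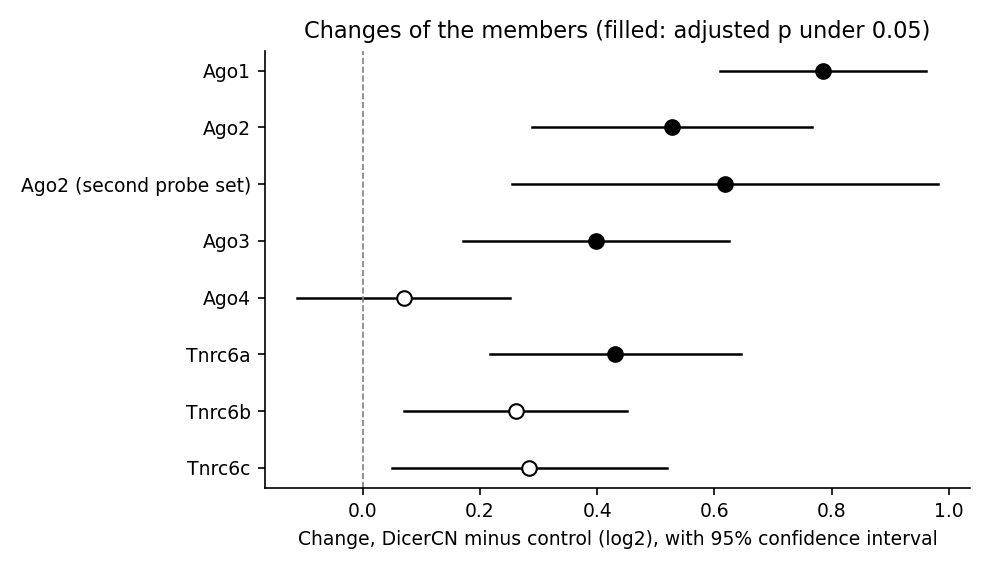
The horizontal axis gives the change, DicerCN minus control, on the log2 scale for each of the 8 probe sets, with its 95% confidence interval; filled circles have an adjusted p under 0.05. Ago1 has the largest estimate, 0.79, Ago4 the smallest, 0.07, and the interval of Ago4 is the only one that includes 0.

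To ask if members differed from one another in their change, the difference between the genes of a pair was taken within each array and compared between the groups by an exact 2-sided permutation test, for 6 Argonaute pairs and 3 Tnrc6 pairs, with adjustment over the 9. Ago1 rose more than its neighbour Ago4 by 0.72 (95% confidence interval 0.49 to 0.94) and more than its neighbour Ago3 by 0.39 (0.18 to 0.59), each with an exact permutation p of 0.00794 and an adjusted p = 0.0357. In both of these pairs the within-array difference was larger in every DicerCN array than in any control array. Ago1 also rose more than Ago2, by 0.26 (0.06 to 0.46, exact permutation p = 0.0159, adjusted p = 0.0357). With the second Ago2 probe set that difference was 0.17 and did not pass (exact permutation p = 0.294, adjusted p = 0.388). Ago2 rose more than Ago4 by 0.46 (0.10 to 0.81, exact permutation p = 0.0159, adjusted p = 0.0357). It was not tested if the Ago4 signal lies above background, and the pairs with Ago4 share that limit.

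The remaining 5 pairs did not pass. Ago3 minus Ago4 was 0.33 (0.02 to 0.64, exact permutation p = 0.0476, adjusted p = 0.0714) and Ago2 minus Ago3 was 0.13 (-0.20 to 0.46, exact permutation p = 0.397, adjusted p = 0.510). Tnrc6a minus Tnrc6b was 0.17 (0.03 to 0.32, exact permutation p = 0.0397, adjusted p = 0.0714). For Tnrc6a minus Tnrc6c the interval was -0.29 to 0.58, and for Tnrc6b minus Tnrc6c it was -0.38 to 0.33, so differences in change of that size are not excluded between these genes. Fits with 1 array left out called between 0 and 5 pairs, with 0 without control replicate 1 or control replicate 3 and 2 without control replicate 5 or DicerCN replicate 2. Over these 10 fits the Ago1 minus Ago2 call held only without control replicate 2 or DicerCN replicate 3, with differences of 0.20 to 0.31. Ago2 minus Ago4 missed the threshold on leaving out DicerCN replicate 2, or any control array but the one numbered 4 (adjusted p = 0.0714 to 0.0857). Ago3 minus Ago4 passed without DicerCN replicate 5 (adjusted p = 0.0238) and Tnrc6a minus Tnrc6b without DicerCN replicate 3 (adjusted p = 0.0429). The Ago1 minus Ago3 and Ago1 minus Ago4 calls were lost only without control replicate 1 or control replicate 3 (adjusted p = 0.0714). The exact permutation p in both of those fits was 0.0159 for Ago1 minus Ago3 and 0.00794 for Ago1 minus Ago4. The latter is the smallest value that 4 against 5 arrays allow, so that loss does not speak to the stability of Ago1 minus Ago4. In all 10 fits the Ago1 minus Ago4 difference stayed between 0.64 and 0.76 and the Ago1 minus Ago3 difference between 0.33 and 0.43.

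**Figure D3:**
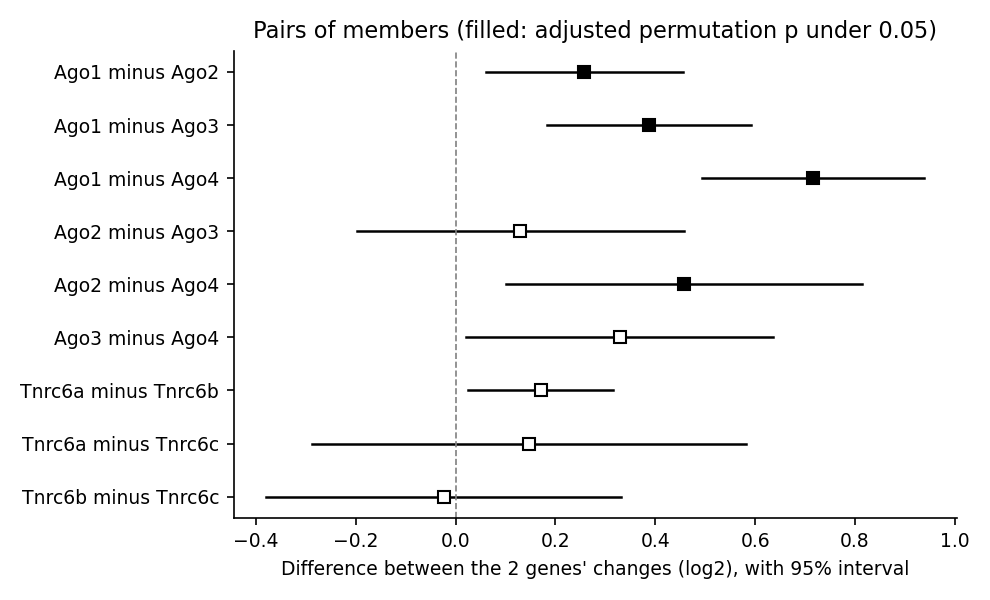
The horizontal axis gives the difference between the changes of the 2 genes of each pair on the log2 scale, with its 95% interval from the pooled variance (5 DicerCN and 5 control arrays); filled squares have an adjusted permutation p under 0.05. The 3 pairs with Ago1 and the pair of Ago2 and Ago4 are filled, and the Ago1 and Ago4 pair lies farthest from 0 at 0.72.

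Among the effectors that Argonaute and Tnrc6 proteins act through, 1 of 29 measured genes rose and 0 fell, which is 3.45% of the list against 6.54% of all genes, and the median change was 0.017. Gigyf1, which binds the cap-binding repressor Eif4e2 and holds down translation, was the one that rose. It had 8.21, 8.05, 8.01, 8.0 and 7.94 in DicerCN replicates 1 to 5, against 7.39, 7.38, 7.30, 7.44 and 7.23 in control replicates 1 to 5, so the groups lay well apart. The change of Gigyf1 was 0.69 (SE 0.07, limma adjusted p = 0.000214), and it passed in all 10 fits without 1 array and in all 12 others. Its partner Eif4e2 had a change of -0.17 (adjusted p = 0.194) and its paralog Gigyf2, named after its value was seen, one of -0.07 (adjusted p = 0.711).

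Cnot6l, a deadenylase of the CCR4-NOT complex, had a change of 0.28 (SE 0.08, limma adjusted p = 0.0719), which passed without control replicate 4 (adjusted p = 0.0499) and after quantile normalization (adjusted p = 0.0454). Mov10, an RNA helicase that associates with Argonautes, had one of 0.29 (adjusted p = 0.187). The changes of all 29 ran from -0.26 to 0.69, and 17 were positive and 12 negative. Named after their values were seen, the CCR4-NOT scaffold Cnot1 stood at 0.04 (95% confidence interval -0.13 to 0.20), the decapping activator Ddx6 at -0.05 (-0.24 to 0.14) and the exonuclease Xrn1 at 0.09 (-0.12 to 0.30). Pabpc4, the one listed effector without a probe set of its own, was not analysed here.

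Of 21 measured genes that load, move or modify Argonautes, 3 rose and 1 fell, or 19% of the list against 6.54% of all genes, with a median change of -0.0034. Ankrd52, a subunit of the protein phosphatase that removes phosphates from Argonaute 2 in human cells, had 10.40, 10.63, 10.76, 10.18 and 10.33 in DicerCN replicates 1 to 5, against 9.51, 9.39, 9.67, 9.58 and 9.64 in control replicates 1 to 5. Its groups did not overlap, and the change was 0.90 (SE 0.11, limma adjusted p = 0.000544). Ppp6c, the catalytic subunit of that phosphatase, named after its value was seen, had a change of 0.51 (SE 0.16, adjusted p = 0.0918).

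Trim71, an RNA-binding ubiquitin ligase that associates with Argonaute 2, had 8.21, 8.03, 8.03, 8.23 and 7.92 in DicerCN replicates 1 to 5, against 7.08, 7.16, 7.36, 7.25 and 7.59 in control replicates 1 to 5, with no overlap and a limma adjusted p of 0.000798. The catalytic subunits of prolyl 4-hydroxylase, an enzyme of collagen that has also been reported to hydroxylate human Argonaute 2, moved in opposite directions. P4ha2 rose by 0.83 (SE 0.15, limma adjusted p = 0.00499), and P4ha1 fell by 0.80 (SE 0.17, adjusted p = 0.0152). P4hb, the shared second subunit, named after its value was seen, stood at 0.11 (adjusted p = 0.573). A macrophage marker score added as a covariate ended both P4ha calls, at 0.53 for P4ha2 (SE 0.18, adjusted p = 0.226) and -0.63 for P4ha1 (SE 0.25, adjusted p = 0.295). Most calls were lost in that fit, where 212 genes differed against 1303 without the score. The P4ha1 call was also lost with the neural retina score (adjusted p = 0.0661) and with a pigment epithelium score chosen after seeing the data (-0.52, adjusted p = 0.196).

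Dicer1 had 10.37, 10.26, 10.19, 10.20 and 10.45 in DicerCN replicates, against 10.23, 10.01, 10.32, 10.07 and 10.20 in control replicates, and the groups overlapped (change 0.13, limma adjusted p = 0.472). The labels do not name the flanked exons, so a probe set over the transcript can lie outside them and this value checks no label. Its partner Tarbp2, named after its value was seen, stood at -0.24 (adjusted p = 0.0782). Also named after their values were seen, Ipo8, an import factor that binds Argonautes, stood at -0.40 (adjusted p = 0.0835) and the loading chaperone Hsp90aa1 at 0.06 (adjusted p = 0.758), and Hsp90ab1 was not analysed here. The Piwi-clade Argonautes, which act in germ cells, did not pass: Piwil1 stood at 0.03, Piwil2 at 0.05 and Piwil4 at 0.03 in the fit (adjusted p = 0.891, 0.811 and 0.896).

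**Figure D4:**
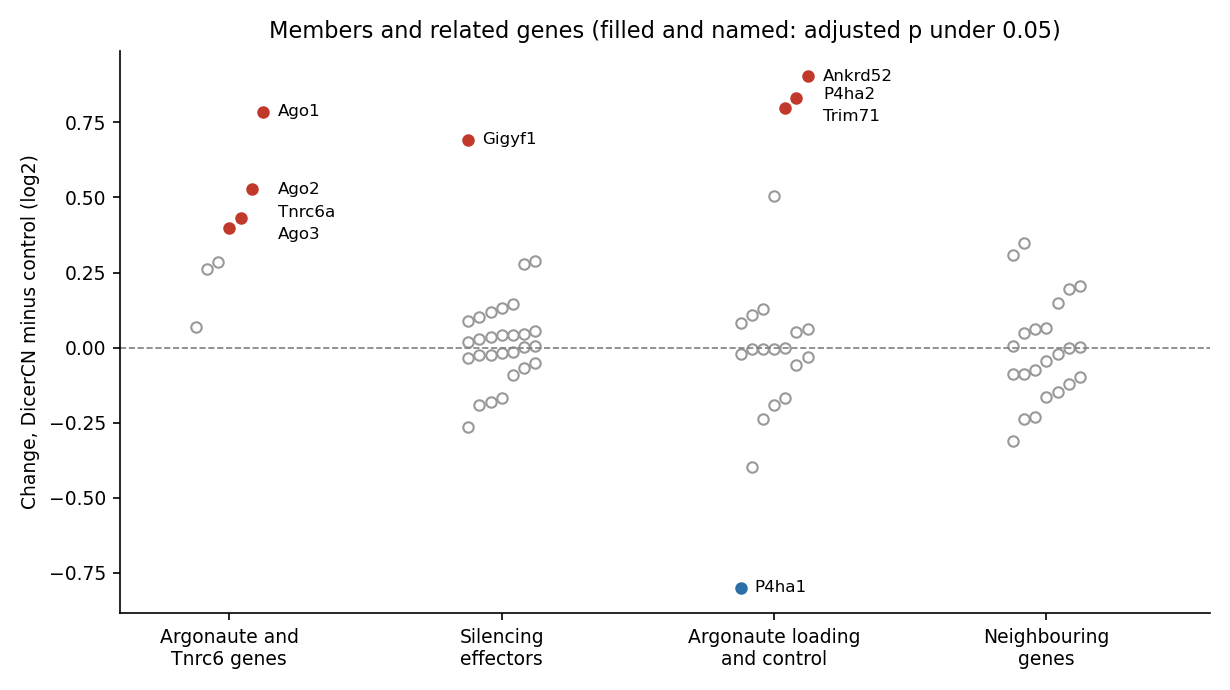
The vertical axis gives the change, DicerCN minus control, on the log2 scale for each measured gene of 4 lists (7 members, 29 silencing effectors, 21 loading and control genes and 23 neighbouring genes); filled points passed the test and are named, red for higher and blue for lower, and the side-by-side spread of points has no meaning. Among the members 4 are filled, among the effectors only Gigyf1, and among the neighbours none.

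None of the 23 measured genes next to the members passed limma's test (0 rose and 0 fell, with adjusted p from 0.0574 up), and with 6.54% of all genes called a count of 0 among so few is near the background. Of these, 8 flank the Ago4, Ago1 and Ago3 cluster, 4 on each side, and the rest are the nearest 2 on each side of the other members, without Ptk2 beside Ago2, which was not analysed here. Their changes ran from -0.31 to 0.35 with a median of -0.02. On the Ago4 side of the cluster, Clspn, a replication checkpoint gene, stood at 0.31 (SE 0.14, limma adjusted p = 0.247) and Psmb2, a proteasome subunit, at -0.31 (SE 0.12, adjusted p = 0.17). Arhgap17, a GTPase activator beside Tnrc6a, stood at 0.35 (SE 0.10, adjusted p = 0.0574) and Tmc6 beside Tnrc6c at -0.24 (adjusted p = 0.283). Psmb2 passed without DicerCN replicate 1 (-0.41, adjusted p = 0.0377) and Arhgap17 without control replicate 3 (0.40, adjusted p = 0.0494). An unadjusted p under 0.05 was found for 3 of the 23, against 18.6% of all genes.

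The genes most like Ago1 and Ago2 over the 10 arrays were taken as those with the smallest mean absolute difference between log2 values centred on each gene's mean. For Ago1 these were Pkd1 (0.035), the gene of polycystin 1, Trim67 (0.054), Slc19a2 (0.063), a thiamine transporter, Prkcd (0.066), protein kinase C delta, and Phlpp2 (0.078), a phosphatase of Akt. Their changes were 0.75, 0.86, 0.82, 0.80 and 0.82. For Ago2 they were Inppl1 (0.062), an inositol phosphatase, Asap2 (0.071), Ptpn21 (0.071), Mink1 (0.072), a kinase, and Susd6 (0.075), with changes of 0.52, 0.62, 0.41, 0.62 and 0.45. Among the members themselves the closest pair by this measure was Tnrc6a with Tnrc6b (0.094), followed by Ago3 with Tnrc6b (0.107), and the most distant was Ago1 with Ago4 (0.358). Likeness over the same 10 arrays reflects the group difference and whatever else the arrays share, and genes chosen this way have to differ between the groups where the member does.

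The lens markers fixed for checking the tissue were all 12 above the midpoint of signal over all genes, and their summed linear signal was 81400 to 97400 in DicerCN lenses and 92100 to 99000 in control lenses. Array correlations were 0.977 to 0.990, and no 2 arrays were identical. Macrophage markers moved with the groups: 2 of 12 rose, against 2.56% of all genes, Csf1r by 0.86 (adjusted p = 0.0111) and Cx3cr1 by 0.73 (adjusted p = 0.0107), and the summed signal of the 12 was 1500 to 2710 in DicerCN lenses and 990 to 1610 in control lenses. For pigment epithelium 0 of 8 passed, against 6.54% of all genes, with sums of 578 to 2220 in DicerCN lenses and 623 to 781 in control lenses. For neural retina 0 of 10 passed, with sums of 1980 to 5280 in DicerCN lenses and 1720 to 2270 in control lenses, highest in DicerCN replicate 5. For muscle 0 of 10 passed, with sums of 946 to 1230 in DicerCN lenses and 876 to 15500 in control lenses, highest in control replicate 4. A score, the mean over markers of log2 signal minus the control mean, averaged 0.64 in DicerCN lenses for macrophage (exact permutation p = 0.0317). It averaged 0.64 for pigment epithelium (exact permutation p = 0.0714), 0.56 for neural retina (p = 0.151) and -0.62 for muscle (p = 0.476). Macrophage markers were thus not alone in standing higher on average. The log2 scale has no 0, so no marker can be called absent. In whole lenses, fewer cells of a type and less RNA per cell cannot be told apart.

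With the macrophage score as a covariate, Ago1 remained past the threshold at a change of 0.83 (SE 0.12, limma adjusted p = 0.0135), as did Gigyf1 at 0.60 (adjusted p = 0.0255) and Ankrd52 at 0.87 (adjusted p = 0.0334). The changes of Ago2, Ago3 and Tnrc6a were 0.49, 0.41 and 0.35 in that fit, with SEs of 0.16, 0.16 and 0.15 against 0.11, 0.10 and 0.099 without the score, and none passed (adjusted p = 0.212, 0.272 and 0.314). Over all genes 212 differed with this covariate, or fewer than the 1303 without it. With the neural retina score, Ago1, Ago2, Ago3, Tnrc6a and Tnrc6b passed, at 0.80, 0.58, 0.49, 0.54 and 0.37. Without control replicate 4 and DicerCN replicate 5 together, Ago1, Ago2 and Tnrc6a passed at 0.75, 0.56 and 0.48, and Ago3 stood at 0.39 (adjusted p = 0.0527). With a pigment epithelium score, an alternative chosen after seeing the data, Ago1 and Ago2 passed at 0.90 and 0.71, while Ago3 stood at 0.50 (adjusted p = 0.0719) and Tnrc6a at 0.47 (adjusted p = 0.0847). Ago3 did not pass with the muscle score (0.34, adjusted p = 0.0795) or with a score of Y-linked genes (0.38, adjusted p = 0.0630). The sign turned in 1 member, Ago4, which stood at -0.03 with the pigment epithelium score (adjusted p = 0.928).

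**Figure D5:**
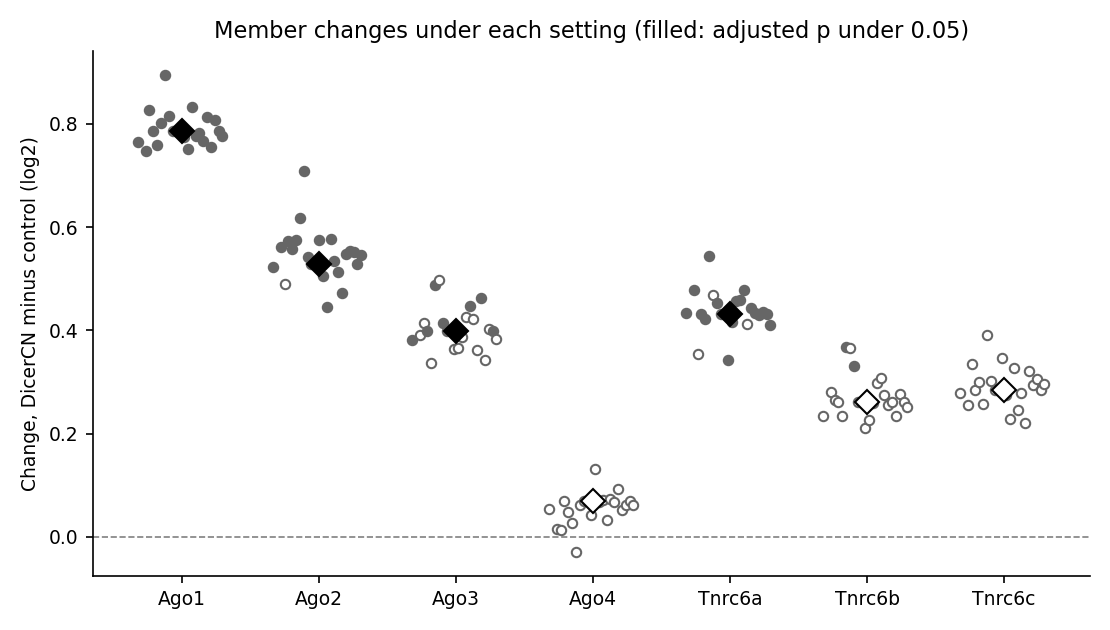
The vertical axis gives the change of each member, DicerCN minus control, on the log2 scale; the diamond is the value reported, circles are the fits that left out arrays or used another normalization, probe set, weighting, prior or covariate, and filled symbols have an adjusted p under 0.05. Those of Ago1 are filled throughout at 0.75 to 0.90, those of Ago3 are partly open, and those of Ago4 lie between -0.03 and 0.13, with 1 below 0.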

How the data were processed

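Lens RNA (100 ng of total RNA per sample) was labelled with the Affymetrix whole-transcript sense assay and hybridised to 1 array per embryo, per the labels' protocols. The deposited values are taken as log2 signals, a base read from their range of 1.91 to 15.2. The submitters' processing notes name GCOS, and how the authors summarised and normalized probes was not given in the sources used here. Near-equal medians show scaling between arrays, which hides any change in the RNA content of a lens.

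Of 35557 probe sets, 21789 had 1 gene symbol in the platform annotation, 1621 had several and 12147 had none, and the last 2 kinds were not tested. Gene IDs of 21698 matched the RefSeq table of GRCm38.p6, and 0 symbols changed. The highest mean probe set of each gene gave 19938 genes. The groups were set against each other in limma 3.58.1 (R 4.3.3, lmFit and eBayes), 2-sided, with Benjamini-Hochberg adjustment over all genes. The code was checked on simulated data, where 37 of 100 genes given a change of 0.4 were recovered and 88 of 100 given 0.8. The number of arrays limits precision: the median SE of a change was 0.099. The members, lists and tests were chosen with earlier results of these data known. Named genes were the members, Dicer1, list genes that passed plus the smallest p-values up to 4 per list, the Piwi-clade genes and the 5 genes most like each of the 2 members of smallest p. Other genes are marked as named after their values were seen. Scores used as covariates are means over markers of log2 signal minus the control mean. Same-numbered arrays did not deviate together (correlations of -0.09 to 0.19), so the main fit has no block. Alternatives were other probe sets, normalization, filters, weights, priors, covariates and arrays left out.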

Additional observations from a re-analysis of the deposited data

Results flagged for a closer look

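Among 68 groups of 5 arrays tested with Dixon's ratio of a gap to the range, 2 held an array far from the others, where chance gives about 5% of groups. Neither was in an Argonaute or Tnrc6 gene. Arhgap17, which lies beside Tnrc6a, had a signal of 9.30 in DicerCN replicate 3, against 8.84 to 8.94 in the other DicerCN arrays. Pkd1, the gene most like Ago1, had a signal of 8.93 in DicerCN replicate 4, against 9.13 to 9.22 in the other DicerCN arrays.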

How the results depend on the processing

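The count of members that differed, 4, was 2 to 4 with 1 array left out, 1 with the macrophage score, 2 with the pigment epithelium score (chosen after seeing the data) and 3 to 5 in the other settings. All genes that differed numbered 784 to 1295 with 1 array left out (784 without control replicate 1 and 865 without control replicate 2), 212 with the macrophage score and 595 with the pigment epithelium score. Loading and control genes that differed numbered 4 to 5 with 1 array left out and 2 with the macrophage score. Silencing effectors numbered 1 to 2 with 1 array left out and 2 after quantile normalization, the second being Cnot6l. Neighbouring genes numbered 0 to 1 with 1 array left out. They numbered 1, Arhgap17, with array weights, with the replicate block and without the dimmest genes. Member pairs that differed numbered 0 to 5 with 1 array left out, 0 without control replicate 4 and DicerCN replicate 5 together, and 0 with the replicate block. The exact tests allow no p below 0.0286 with both arrays out. Ago1 minus Ago3, Ago1 minus Ago4, Ago2 minus Ago4 and Ago3 minus Ago4 reached it (adjusted p = 0.0643). With 4 pairs there the adjustment lets none pass, so the 0 does not speak to the stability of those 4. Ago1 minus Ago2, called in the main test, did not reach it, at a difference of 0.19 (exact permutation p = 0.0571, adjusted p = 0.0857). In the block no p below 0.0625 is possible, so no pair could pass and that 0 does not speak to stability. The numbers do not pair the arrays. With the replicate block in limma the members that differed were again 4 and all genes 1100. Of the 33 named genes, the sign turned in Ago4 with the pigment epithelium score (-0.029), in Piwil1 without control replicate 2 (-0.017, with 0.070 the highest with 1 array left out), and in Piwil4 with the macrophage score (-0.038), with the muscle score (-0.0079) and without control replicate 4 (-0.0024, with 0.082 the highest with 1 array left out), none of them past the threshold in any fit. In 34 of 734 comparisons of a named gene with its reported value a call was lost and in 10 one was gained, and the causes were not tested. These comparisons include the exact permutation tests of the members, whose p is not adjusted over genes. The gain counted there for Tnrc6b (exact permutation p = 0.00794) is therefore not a limma call. With the macrophage score Inppl1, Asap2, Ptpn21, Mink1 and Susd6 did not pass (adjusted p = 0.0694 to 0.407), at changes of 0.37, 0.62, 0.33, 0.57 and 0.44 and with larger SEs (0.14 against 0.094 for Asap2), and the call of Ptpn21 was lost in 7 of the 10 fits without 1 array.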
